A study of Mus musculus with 8 samples.

Results

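Expression of the core genes of the LIF-STAT3 pathway was followed through neural differentiation of mouse embryonic stem cells (mESCs) with and without the Polycomb gene Pcgf5. The 9 genes were taken by name, by a rule that uses no measured value, though with earlier results of these data known: the cytokine Lif, its receptor chains Lifr and Il6st, the receptor kinases Jak1 and Jak2, the transcription factor Stat3, the feedback inhibitor Socs3 and the kinase genes Pim1 and Pim3. They are 9 of 24849 genes listed in the RNA-seq files. All 9 were above 1 FPKM (the fragments mapped to a gene, scaled to its length and to the depth of the library) in each of the 8 samples, so the filter on low levels, which left 13214 genes, removed none of them.

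LIF binds LIFR, which then pairs with gp130, the product of Il6st and the shared signalling chain of the interleukin-6 cytokine family. The kinases JAK1 and JAK2, bound to the tails of these receptors, phosphorylate STAT3, and STAT3 dimers enter the nucleus and switch on target genes. SOCS3 is made in response and shuts the receptor complex down again. In mESCs this pathway is known for holding cells in self-renewal, and taking LIF away is a standard way to start differentiation.

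The cells were MPI-II mESCs, with 129S2/SvPas given as their source. Wild type (WT) and Pcgf5-/- cells were compared, each at day 0 and day 6 of differentiation, with 2 samples per condition. In the knockout line a puromycin and a neomycin cassette had been placed in Pcgf5 with TALENs and single colonies picked, so the line is clonal, and how many clones these samples represent is not given in the sources used here. At day 0 cells grew on feeder cells in serum with LIF and the 2i inhibitors CHIR99021 (of GSK3) and PD0325901 (of MEK), and for differentiation they were moved to N2B27 medium. Loss of added LIF, of 2i, of serum and of feeders therefore all separate day 6 from day 0 and cannot be told apart.

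Libraries were made from polyA+ RNA. Pcgf5 itself, the gene targeted, was at 5.18 and 3.63 FPKM in WT day 0, 9.16 and 5.06 in WT day 6, 1.28 and 1.84 in Pcgf5-/- day 0, and 0.669 and 0.457 in Pcgf5-/- day 6, so both knockout samples lay below both WT samples on each day. The 8 mESC markers summed to between 2071 and 2244 FPKM in the 4 day 0 samples, to 467 and 205 in WT day 6 and to 1331 and 1228 in Pcgf5-/- day 6. The 8 neural progenitor markers summed to between 18.9 and 25.5 FPKM at day 0, 363 and 378 in WT day 6, and 126 and 141 in Pcgf5-/- day 6. Day 6 samples labelled as mESCs thus carried neural progenitor RNA, with more mESC and less progenitor marker RNA in the Pcgf5-/- samples than in WT. In such bulk samples, fewer cells of a type and less RNA per cell cannot be told apart. Read depth is unknown, as the files give no counts.

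STAT dimers bind the palindrome TTCNNNGAA, which reads the same on both strands. It was searched for in RefSeq promoter windows (build GRCm38.p6, 300 bases from 250 before to 50 after an annotated start), and it lay in 2722 of 32817 windows, or 8.29%. A window was present for all 9 genes, 11 windows in all, and one of these, that of Socs3, held the palindrome. Its first base was 154 bases before the start. The narrower form TTCCNGGAA, contained in the first, lay in 1.15% of all windows and in none of these 11. Of the other pathway genes described below, 40 had a window, and Cish and Gab1 were the 2 with a match. The 250 bases before the start are shown for Socs3 and Stat3, which fell most among these genes with differentiation, and for Jak2, which rose. Capitals mark the palindrome. On mm9 (NCBIM37), where each sequence was found once at its gene, they are chr11:117830681-117830930 (minus strand) for Socs3, chr11:100800855-100801104 (minus strand) for Stat3 and chr19:29326043-29326292 (plus strand) for Jak2.
Socs3: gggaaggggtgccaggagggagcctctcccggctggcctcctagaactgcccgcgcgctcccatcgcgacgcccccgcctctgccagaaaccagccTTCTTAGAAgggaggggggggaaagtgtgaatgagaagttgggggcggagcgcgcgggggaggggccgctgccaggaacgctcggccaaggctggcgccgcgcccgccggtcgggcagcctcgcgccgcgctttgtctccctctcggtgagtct
Stat3: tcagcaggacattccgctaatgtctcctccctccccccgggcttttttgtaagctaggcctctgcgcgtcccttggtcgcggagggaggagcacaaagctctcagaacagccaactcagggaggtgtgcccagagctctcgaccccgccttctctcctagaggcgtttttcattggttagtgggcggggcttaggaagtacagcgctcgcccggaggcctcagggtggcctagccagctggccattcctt
Jak2: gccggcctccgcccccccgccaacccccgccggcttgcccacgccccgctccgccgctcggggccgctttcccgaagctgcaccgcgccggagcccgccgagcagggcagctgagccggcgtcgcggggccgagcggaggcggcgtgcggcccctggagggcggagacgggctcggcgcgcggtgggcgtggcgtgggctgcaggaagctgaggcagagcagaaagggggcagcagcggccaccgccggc
A match to these letters is a description of the window and not a measured binding site, and no match says nothing about sites elsewhere.

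During WT differentiation Stat3 and its targets Socs3, Pim1 and Pim3 fell, Lifr fell, and Jak2 rose. In Pcgf5-/- cells Stat3, Socs3, Pim1 and Pim3 also fell and Jak2 also rose. At day 6 Stat3 was higher and Jak2 lower in Pcgf5-/- than in WT cells, and at day 0 none of the 9 genes differed past the threshold. These differences were fitted with limma on log2(FPKM + 1) over 13214 genes, and a gene was called at a Benjamini-Hochberg adjusted p under 0.05. Log2 differences are on that scale, which understates the change of low genes, and folds are ratios of mean FPKM. The comparisons share samples, so they are not independent of each other.

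**Figure D1:**
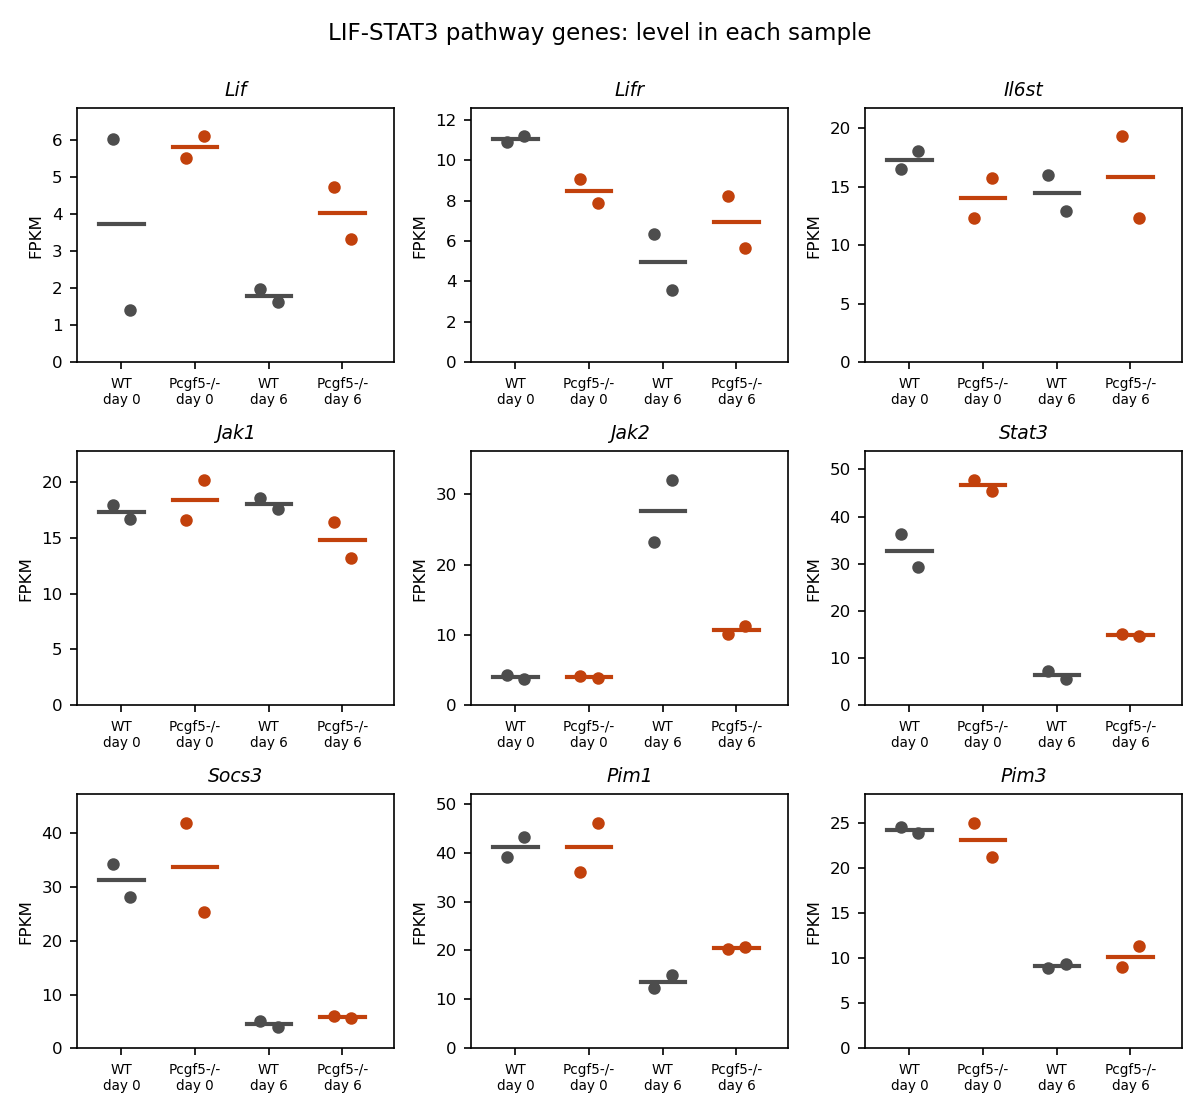
Level (FPKM, linear axis from 0) of each of the 9 genes in each sample, with 2 points per condition and a bar at their mean, grey for wild type and orange for Pcgf5-/-. Stat3, Socs3, Pim1 and Pim3 are high at day 0 and low at day 6 in both genotypes, and Jak2 runs the other way.

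Lif, the ligand, lies on chromosome 11 (mm9, 4157571 to 4172517, plus strand). By mean it was the lowest of the 9 genes in WT day 0, WT day 6 and Pcgf5-/- day 6. Its FPKM was 6.02 and 1.41 in WT day 0, 1.96 and 1.61 in WT day 6, 5.51 and 6.09 in Pcgf5-/- day 0, and 4.73 and 3.33 in Pcgf5-/- day 6. The WT day 0 samples disagreed beyond the confidence intervals that Cufflinks gave for them, 5.33 to 6.72 in replicate 1 and 1.12 to 1.71 in replicate 2. Both Pcgf5-/- samples lay above both WT samples at day 6, with a log2 difference of 0.84 (SE 0.43, adjusted p = 0.215), and the groups overlapped at day 0 (0.72, adjusted p = 0.436). The fall from day 0 to day 6 did not pass the test in WT (-0.57, adjusted p = 0.299) or in Pcgf5-/- (-0.45, adjusted p = 0.46). In WT it rested on 1 library: without replicate 2 of WT day 0 the difference was -1.34 with an adjusted p of 0.00708, and without replicate 1 it was 0.20.

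As a sum, marker genes of fibroblasts, the cell type used as feeders, were higher at day 0 than at day 6. The summed FPKM of 8 feeder fibroblast markers was 275 and 170 in WT day 0, 173 and 615 in Pcgf5-/- day 0, 23.0 and 36.1 in WT day 6, and 11.9 and 15.3 in Pcgf5-/- day 6. None of the 8 was at 0 in any sample, and 6 of the 8 fell with day in each genotype. In WT day 0, 7 of the 8 were higher in replicate 1 than in replicate 2, as Lif was, and Postn was lower (25.3 and 37.1 FPKM). As a ratio the gap was widest for Lum (4.58 and 0.358) and Dcn (5.95 and 1.33), which encode matrix proteoglycans and were picked out after their values were seen, and narrower for the others, such as Col1a1 at 117 and 64.6 and Col3a1 at 19.8 and 14.3. Il6, a related cytokine gene, was at 2.06 and 0.187 in the same samples. In Pcgf5-/- day 0, the summed markers differed 173 to 615 while Lif was 5.51 and 6.09. The part of feeder RNA in the level of Lif was not tested.

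**Figure D2:**
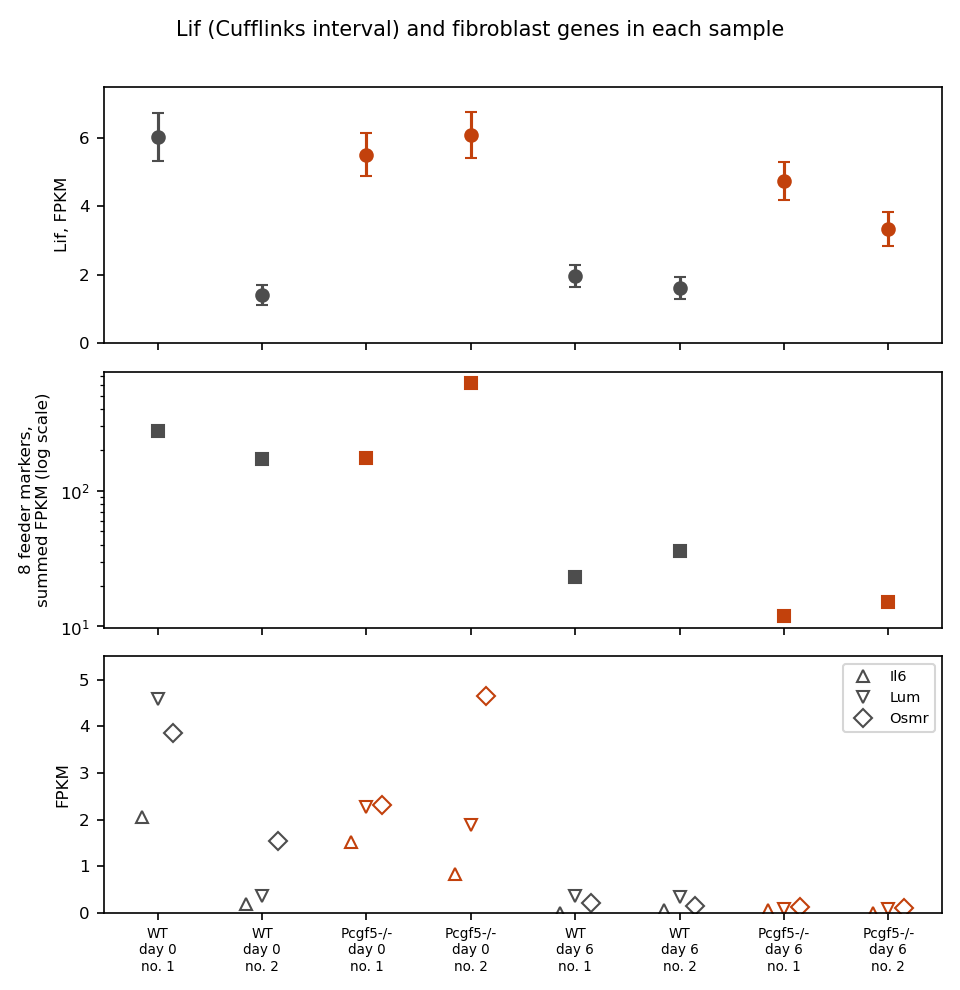
Top, FPKM of Lif in each sample with the Cufflinks confidence interval; middle, summed FPKM of 8 feeder fibroblast markers on a log axis; bottom, FPKM of Il6, Lum and Osmr. Grey marks wild type and orange Pcgf5-/-. Replicate 1 of WT day 0 is above replicate 2 for Lif, the sum, Il6, Lum and Osmr. Il6 and Lum were picked after their values were seen. Postn, within the sum, runs the other way (25.3 and 37.1 FPKM). The summed feeder markers are low in the day 6 samples of both genotypes.

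Lifr, the ligand-binding receptor chain (chromosome 15, 7079572 to 7147489, plus strand), fell in WT cells. Its FPKM was 10.9 and 11.2 in WT day 0 and 6.33 and 3.57 in WT day 6, a 2.23-fold fall (log2 -1.06, SE 0.26, adjusted p = 0.00953). In Pcgf5-/- cells it was 9.07 and 7.88 at day 0 and 8.21 and 5.67 at day 6. There the groups overlapped and the difference of -0.27 did not pass (adjusted p = 0.453). The change of the genotype difference between the days was 0.78 (SE 0.36, adjusted p = 0.24), so a difference in the response of Lifr was not shown. The call in WT was lost without replicate 2 of WT day 6 (-0.72, adjusted p = 0.069).

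Il6st encodes gp130 (chromosome 13, 113254278 to 113297068, plus strand). It was at 16.5 and 18.0 FPKM in WT day 0, 16.0 and 13.0 in WT day 6, 12.3 and 15.8 in Pcgf5-/- day 0, and 19.3 and 12.3 in Pcgf5-/- day 6. All 8 values lay between 12.3 and 19.3, and none of its log2 differences, from -0.29 for genotype at day 0 to 0.14 for day in Pcgf5-/-, passed the test. The 95% interval of the WT day difference ran from -0.76 to 0.27. Each sample centred per chromosome, a setting described below, gave -0.58 for that difference with an adjusted p of 0.0396. That setting also moved the median WT day difference of all tested genes from 0.22 to -0.14. All WT day calls went from 4522 higher and 2146 lower to 2759 and 4077, so this call came with a general downward shift.

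Of Jak1 and Jak2, the genes of the kinases that carry the signal from the receptor, Jak2 rose with differentiation and Jak1 passed no test. Jak1 (chromosome 4, 100824579 to 100937887, minus strand) was at 17.9 and 16.7 FPKM in WT day 0, 18.6 and 17.6 in WT day 6, 16.6 and 20.2 in Pcgf5-/- day 0, and 16.4 and 13.2 in Pcgf5-/- day 6. Its values spanned 13.2 to 20.2, and no comparison passed. At day 6 both Pcgf5-/- samples lay below both WT samples (-0.28, SE 0.16, adjusted p = 0.274). Exons of Jak1 overlap those of Raver2 on the other strand, which went from 1.28 and 1.22 to 13.1 and 18.9 FPKM in WT and from 1.57 and 1.94 to 12.6 and 11.7 in Pcgf5-/-, and the strand of the counting is not given in the sources used here, so shared reads cannot be told apart.

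Jak2 (chromosome 19, 29326293 to 29387570, plus strand) rose in both genotypes. It was at 4.26 and 3.77 FPKM in WT day 0 and 4.19 and 3.86 in Pcgf5-/- day 0. The 4 day 0 samples thus lay between 3.77 and 4.26 FPKM, and the genotype difference was 0.00 (95% interval -0.43 to 0.44). At day 6 it reached 23.2 and 32.1 in WT and 10.2 and 11.3 in Pcgf5-/-. In WT the rise was 6.89-fold (log2 2.50, SE 0.19, adjusted p = 3.54e-05), and in Pcgf5-/- it was 2.67-fold (1.22, SE 0.19, adjusted p = 0.00268). At day 6 the Pcgf5-/- mean was 2.58-fold lower than that of WT (-1.27, SE 0.19, adjusted p = 0.00758). The rise was smaller in Pcgf5-/- by 1.28 on the log2 scale (95% interval of the change -1.90 to -0.66), with an adjusted p of 0.0484. Of 19 alternatives, 4 kept this last call, it was lost in 7 of the 8 that leave out a library, and the adjusted p ranged from 0.0268 to 0.160. The call of the day 6 difference was lost without replicate 1 of Pcgf5-/- day 6 (-1.21, adjusted p = 0.056) and without replicate 2 of WT day 6 (-1.05, adjusted p = 0.051).

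Stat3, the transcription factor at the centre of the pathway (chromosome 11, 100748124 to 100800825, minus strand), fell with differentiation and was higher at day 6 in Pcgf5-/- cells. It was at 36.3 and 29.2 FPKM in WT day 0 and 7.32 and 5.60 in WT day 6, a 5.07-fold fall (log2 -2.18, SE 0.17, adjusted p = 3.51e-05). In Pcgf5-/- cells it was at 47.9 and 45.3 FPKM at day 0 and 15.1 and 14.7 at day 6, a 3.13-fold fall (-1.58, SE 0.17, adjusted p = 0.000497). The samples of the 2 days did not overlap in either genotype. At day 6 Stat3 was 2.30-fold higher in Pcgf5-/- than in WT (1.10, SE 0.17, adjusted p = 0.00758), a call lost without replicate 1 of Pcgf5-/- day 6 (1.08, adjusted p = 0.0536). At day 0 both Pcgf5-/- samples were also above both WT samples, by 1.42-fold, and this passed only before adjustment (log2 0.50, SE 0.17, adjusted p = 0.17). The change of the genotype difference between the days was 0.60 (SE 0.23, adjusted p = 0.179).

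Genes of chromosome 11, where Stat3 lies, were by median higher in Pcgf5-/- than in WT on both days. Over the 1086 tested genes of chromosome 11 the median log2 difference of Pcgf5-/- against WT was 0.48 at day 0 and 0.38 at day 6. Chromosome 6, with 643 tested genes, had 0.41 and 0.37. The medians of the other chromosomes ranged from 0.04 to 0.12 at day 0 and from -0.06 to 0.03 at day 6. Lif, Stat3 and Socs3, 3 of the 9 genes, are on chromosome 11. Centring takes the same amount off every gene of a chromosome in a sample. The shift it gives was therefore fixed for all 3 alike and is no test of Stat3. With each sample centred per chromosome, the difference of Stat3 was -0.02 at day 0 (adjusted p = 0.976) and 0.73 at day 6 (adjusted p = 0.0297). That of Lif was 0.20 at day 0 and 0.47 at day 6, and that of Socs3 was -0.46 and -0.05. None of the Lif and Socs3 values passed. Jak2, on chromosome 19, kept its day 6 difference at -1.24 (adjusted p = 0.00876). The number of copies of chromosomes 6 and 11 in these cells was not tested.

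**Figure D3:**
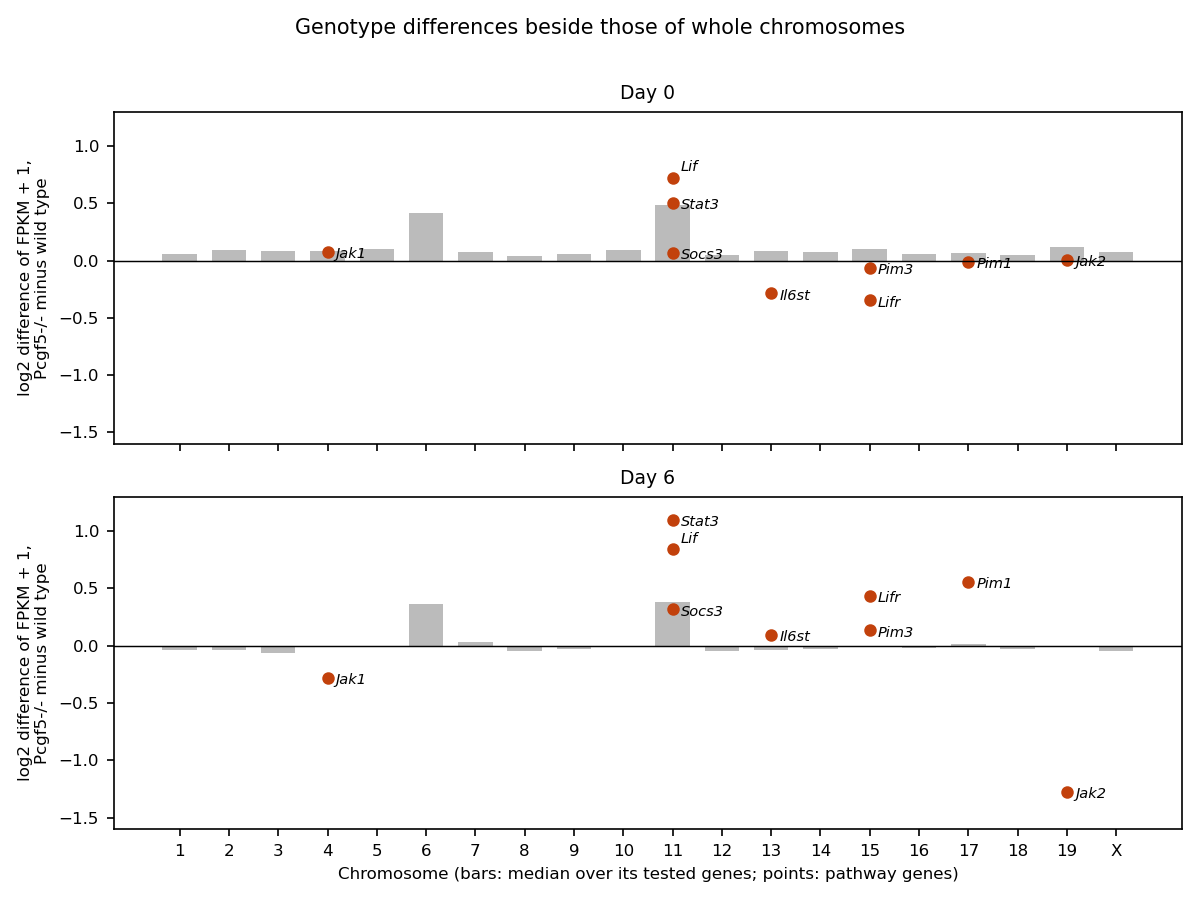
Log2 difference (FPKM + 1) of Pcgf5-/- against wild type by chromosome, at day 0 and day 6. Grey bars are the median over the tested genes of a chromosome and orange points are the 9 pathway genes. Chromosomes 6 and 11 stand at 0.41 and 0.48 at day 0, and Stat3 lies at its chromosome's median at day 0 and above it at day 6.

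Socs3, the feedback inhibitor (chromosome 11, 117827401 to 117830680, minus strand), had the largest fall of the 9 in each genotype. Its FPKM was 34.3 and 28.2 in WT day 0 and 5.0 and 3.98 in WT day 6, a 6.96-fold fall (log2 -2.55, SE 0.24, adjusted p = 9.33e-05). In Pcgf5-/- it was 42.0 and 25.4 at day 0 and 6.03 and 5.60 at day 6, a 5.79-fold fall (-2.30, SE 0.24, adjusted p = 0.000477). Both Pcgf5-/- samples lay above both WT samples at day 6, by 0.32 (SE 0.24), which did not pass (adjusted p = 0.395). The 95% interval of that difference, -0.23 to 0.87, includes 0. The window shown above with the palindrome belongs to this gene.

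Pim1 and Pim3 encode serine/threonine kinases that support survival and self-renewal, and Pim1 is a textbook STAT3 target. Pim1 (chromosome 17, 29627990 to 29632404, plus strand) was at 39.0 and 43.2 FPKM in WT day 0, 12.3 and 15.1 in WT day 6, 36.1 and 46.1 in Pcgf5-/- day 0, and 20.4 and 20.7 in Pcgf5-/- day 6. It fell 3.01-fold in WT (-1.53, SE 0.16, adjusted p = 0.000176) and 2.00-fold in Pcgf5-/- (-0.96, SE 0.16, adjusted p = 0.00377). At day 6 both Pcgf5-/- samples were above both WT samples, 1.5-fold in the means. That difference of 0.56 (SE 0.16) had an adjusted p of 0.0503 and passed under 5 of 16 alternatives. An antisense non-coding gene, Gm16912, overlaps an exon of Pim1.

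Pim3 (chromosome 15, 88692624 to 88696156, plus strand) fell in both genotypes and was not called between them. It was at 24.5 and 23.8 FPKM in WT day 0, 8.88 and 9.40 in WT day 6, 25.0 and 21.2 in Pcgf5-/- day 0, and 9.04 and 11.3 in Pcgf5-/- day 6. The fall was 2.65-fold in WT (-1.31, SE 0.16, adjusted p = 0.000324) and 2.27-fold in Pcgf5-/- (-1.11, SE 0.16, adjusted p = 0.00188). The genotype difference was -0.07 at day 0 (95% interval -0.43 to 0.30) and 0.13 at day 6 (-0.23 to 0.50).

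Counted together, 5 of the 9 genes fell and 1 rose in WT, where 16.2% of all tested genes fell and 34.2% rose. In Pcgf5-/- cells 4 fell and 1 rose, against 10.4% and 21.9% of all tested genes. Their median log2 day difference was -1.06 in WT and -0.45 in Pcgf5-/-, beside 0.22 and 0.13 over all tested genes. The summed mESC and feeder fibroblast markers were lower, and the neural progenitor markers higher, in the day 6 samples of both genotypes. Within the mESC list in Pcgf5-/-, 3 of the 8 were called lower with day and 1, Utf1, higher (mean 74.0 to 147 FPKM). Dppa4 also had a higher mean there (51.0 to 79.7 FPKM), which was not called. The part of such changes in the mix of cells was not tested. Jak2, Stat3, Socs3, Pim1 and Pim3 passed in both genotypes under all 16 alternatives tried for each day difference. Quantile normalization, which moved the median of all genes from 0.22 to 0.005 in WT, changed the split of all WT day calls from 4522 higher and 2146 lower to 3181 higher and 3020 lower, and in Pcgf5-/- from 2898 and 1373 to 1961 and 1734.

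Between genotypes at day 0, limma called none of the 9, where 0.288% of all tested genes were higher and 0.0454% lower. At an unadjusted p under 0.05 there was 1, Stat3. At day 6, 1 was higher (Stat3) and 1 lower (Jak2), against 9.57% and 7.05% of all tested genes, and the median difference of the 9 was 0.32, beside 0.02 over all genes. For the change of the genotype difference between the days, 1 of the 9 was called, Jak2, in the direction of 1.75% of all tested genes, while 1.34% were called the other way. At an unadjusted p under 0.05, Stat3 and Pim1 were higher. Quantile normalization turned the split of all day 0 genotype calls from 38 higher and 6 lower to 0 and 3, and that of the change between the days from 177 and 231 to 307 and 225.

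**Figure D4:**
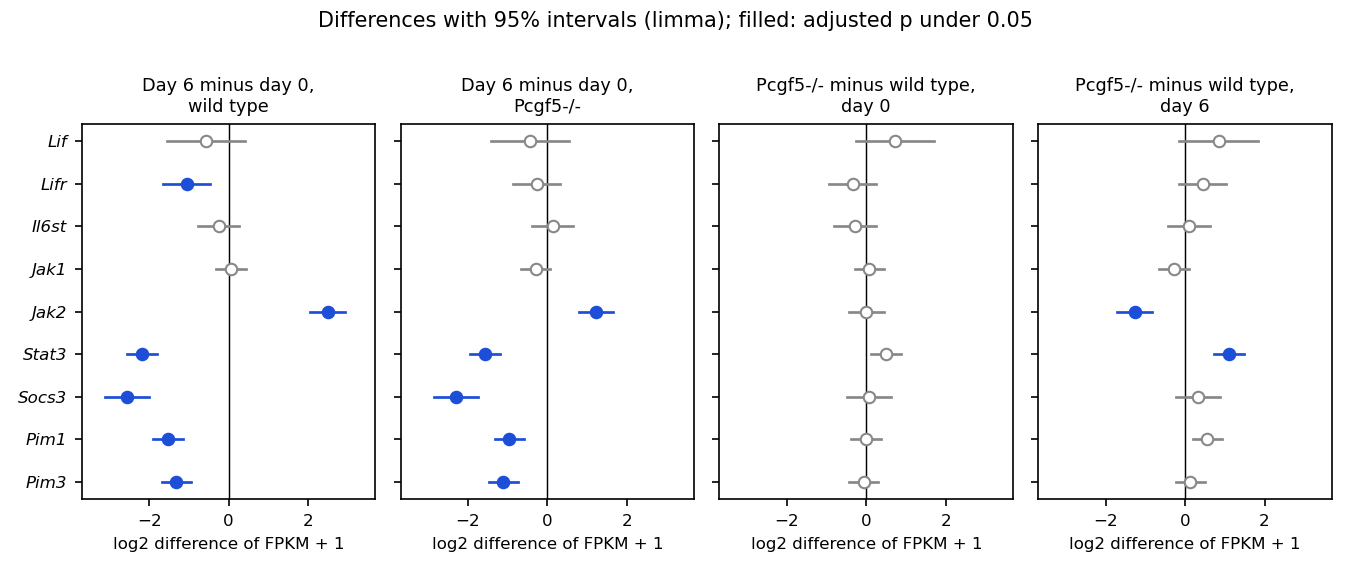
Log2 differences (FPKM + 1) of the 9 genes with 95% intervals from limma in 4 comparisons, filled and blue where the adjusted p is under 0.05. Socs3 has the lowest value in both day comparisons, Jak2 the highest, and at day 6 Stat3 and Jak2 lie on opposite sides of 0.

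The order of the levels changed in part with differentiation. FPKM is per length, so genes can be set beside each other within a condition. In WT day 0, Pim1 was highest at a mean of 41.1 FPKM, then Stat3 (32.8) and Socs3 (31.2), whose samples overlapped, then Pim3 (24.2), then Jak1 and Il6st (both 17.3, overlapping), Lifr (11), and last Jak2 (4.01) and Lif (3.72), which overlapped. In WT day 6, Jak2 was highest at 27.7 FPKM, followed by Jak1 (18.1), Il6st (14.5) and Pim1 (13.7), of which Il6st and Pim1 overlapped, then Pim3 (9.14). Stat3 (6.46), Lifr (4.95) and Socs3 (4.49) came next, each overlapping its neighbour, and Lif (1.79) was lowest. Jak2 thus went from the eighth place to the first.

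In Pcgf5-/- day 0, Stat3 (46.6 FPKM), Pim1 (41.1) and Socs3 (33.7) led, each overlapping its neighbour, and Pim3 (23.1), Jak1 (18.4), Il6st (14.1), Lifr (8.48), Lif (5.80) and Jak2 (4.03) followed without overlap. In Pcgf5-/- day 6, Pim1 was highest (20.5), and Il6st (15.8), Stat3 (14.9) and Jak1 (14.8) overlapped, as did Jak2 (10.7) and Pim3 (10.2), and Lifr (6.94) and Socs3 (5.82), with Lif (4.03) lowest. Jak2 was the fifth here and not the first as in WT day 6.

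Across the 8 samples, Pearson's r of log2(FPKM + 1) between Jak2 and the genes that fell was -0.976 for Stat3, -0.961 for Pim1, -0.918 for Socs3 and -0.903 for Pim3. Among the genes that fell it was 0.983 for Socs3 and Pim3, 0.945 for Stat3 and Pim1, and 0.937 for Stat3 and Socs3. These values describe 8 samples that fall into 2 days, so much of each is the day itself. Genes most like each of the 9 by the same measure were Stx11 (0.974) for Lif, Zfp850 (0.996) for Lifr, Spen (0.964) for Il6st, and Fndc3b (0.942) for Jak1. For Jak2 it was Katnal1 (0.999), ahead of Vit (0.998). Itpka (0.996) was most like Stat3, Ldha (0.994) most like Socs3, Cep55 (0.996) most like Pim1 and St3gal4 (0.989) most like Pim3.

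The rest of the pathway was read from a list of 58 other genes, of which 54 passed the filter. Clcf1, Il11, Il27 and Il27ra did not, and Il27 was listed at 0 in each sample. In WT differentiation 13 rose and 19 fell, or 24.1% and 35.2% of the 54, beside 34.2% and 16.2% of all tested genes. In Pcgf5-/- 8 rose and 13 fell, or 14.8% and 24.1%, beside 21.9% and 10.4%. At day 6, 14 were higher and 2 lower in Pcgf5-/- than in WT, or 25.9% and 3.7%, beside 9.57% and 7.05%. At day 0 limma called 0, with 7 higher and 2 lower at an unadjusted p under 0.05. The median difference of the 54 was -0.01 for WT day, -0.04 for Pcgf5-/- day, 0.18 for genotype at day 0 and 0.13 for genotype at day 6, where the medians of all tested genes were 0.22, 0.13, 0.11 and 0.02. With quantile normalization the WT day split was 8 and 23 and the day 6 genotype split 14 and 4. Exons of Cntf, Jak3, Stat6, Ptpn6, Bcl3 and Gbx2 overlap those of other annotated genes, so part of their reads could belong to a neighbour.

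Among the LIF-family cytokines, 4 of 7 were tested. Osm, the gene of oncostatin M, was at 3.48 and 3.76 FPKM in WT day 0 and 0.330 and 0.0336 in WT day 6, a fall of 1.98 on the log2 scale (adjusted p = 0.000161). In Pcgf5-/- it was at 1.45 and 1.71 and then 1.42 and 0.937, which was not called. At day 6 Osm was higher in Pcgf5-/- than in WT (0.88, adjusted p = 0.0252), and the genotype difference changed between the days by 1.73 (SE 0.29, adjusted p = 0.0313). Like Lif, it lies on chromosome 11. Cntf, the ciliary neurotrophic factor gene, fell in Pcgf5-/- (-1.96, adjusted p = 0.0059) and was lower there at day 6, at 0.406 and 0.209 against 2.13 and 2.22 FPKM (-1.28, adjusted p = 0.0497). Its exons overlap those of Zfp91 on the same strand, which was at 26.9 to 34.9 FPKM at day 6.

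Of the 6 other receptor chains, all 5 tested were called with day in WT. There 2 were higher and 3 lower (40% and 60%), beside 34.2% and 16.2% of all tested genes. In Pcgf5-/- 1 was higher and 3 lower (20% and 60%), beside 21.9% and 10.4%. The shares that rose thus lay near those of all tested genes. Cntfr, the receptor subunit that lets CNTF use LIFR and gp130, rose from 0.409 and 0.220 to 61.6 and 74.1 FPKM in WT (log2 5.71, SE 0.32, adjusted p = 1.12e-05). In Pcgf5-/- it rose from 0.466 and 2.17 to 36.4 and 39.1 FPKM (4.17, adjusted p = 0.000164). Il6ra, the interleukin-6 receptor, fell by 1.92 in WT and by 1.88 in Pcgf5-/- (adjusted p = 0.000131 and 0.00045). Osmr, the oncostatin M receptor, fell by 1.59 and 1.96. Osmr was, as Lif was, higher in replicate 1 than in replicate 2 of WT day 0. None of the 5 was called between genotypes on either day by limma, with 0 and 1 (Cntfr, lower at day 6) at an unadjusted p under 0.05.

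Jak3 and Tyk2, the remaining Janus kinases, were both higher in Pcgf5-/- than in WT at day 6, opposite to Jak2. Beside these 2 genes, 9.57% of all tested genes were called higher and 7.05% lower. Jak3 was at 12.6 and 11.4 FPKM in WT day 0 and 3.56 and 3.02 in WT day 6, a fall of 1.60. In Pcgf5-/- it was at 8.90 and 7.78 and then 7.47 and 9.26, ranges that overlapped. The day 6 genotype difference was 1.12 (SE 0.18, adjusted p = 0.0088) and its change between the days 1.60 (SE 0.25, adjusted p = 0.0289). For Tyk2 the day 6 difference was 0.59 (adjusted p = 0.042).

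Of the 6 other STAT genes, Stat4 and Stat6 were higher in Pcgf5-/- at day 6. That is 33.3% higher and 0% lower, beside 9.57% and 7.05% of all tested genes. Stat5b was lower there only at an unadjusted p under 0.05 in limma. Stat4 fell in WT (-0.67, adjusted p = 0.0157) from 1.78 and 2.00 to 0.858 and 0.773 FPKM. It rose in Pcgf5-/- (1.08, adjusted p = 0.0037) from 1.81 and 1.59 to 4.21 and 5.22 FPKM. The change of the genotype difference was 1.75 (SE 0.26, adjusted p = 0.0269). Stat6 fell by 1.35 in WT and was higher by 1.06 in Pcgf5-/- at day 6 (adjusted p = 0.011). Stat2 rose in both genotypes (0.92 and 0.97), and Stat5b rose in WT (1.13). With day in WT, 33.3% of the 6 were called higher and 33.3% lower, beside 34.2% and 16.2% of all tested genes. In Pcgf5-/- these were 33.3% and 0%, beside 21.9% and 10.4%. Stat5a and Stat5b, like Stat3, are on chromosome 11.

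Of 14 inhibitors, 4 rose and 3 fell in WT (28.6% and 21.4%), and 3 rose and 1 fell in Pcgf5-/- (21.4% and 7.14%). These shares lie near those of all tested genes, which were 34.2% and 16.2% in WT and 21.9% and 10.4% in Pcgf5-/-. The largest WT changes were those of Ptpn1, a phosphatase of Janus kinases (1.37), Socs5 (1.08) and Pias2 (-1.01). At day 6, Ptpn6, the gene of the phosphatase SHP1, was at 14.7 and 17.8 FPKM in Pcgf5-/- against 5.64 and 4.30 in WT (1.53, SE 0.20, adjusted p = 0.00516). Socs2 was higher too, at 40.8 and 49.8 against 23.9 and 20.5 FPKM (0.99, adjusted p = 0.00944), as was Pias2 (0.77, adjusted p = 0.032), and Socs5 was lower (-0.60, adjusted p = 0.0475). At day 6, 21.4% of the 14 were thus called higher and 7.14% lower, beside 9.57% and 7.05% of all tested genes. Ptpn6 lies on chromosome 6. Socs1, the gene of a related inhibitor of Janus kinases, was at 1.93 and 1.90 FPKM in WT day 0 and 5.21 and 3.97 in Pcgf5-/- day 0, which did not pass (0.93, adjusted p = 0.0725).

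In the branch from gp130 through SHP2 to ERK and PI3K, 4 of 13 rose and 2 fell in WT, shares (30.8% and 15.4%) near the 34.2% and 16.2% of all tested genes. Akt1 rose from 20.5 and 18.2 to 55.4 and 70.2 FPKM (1.64, adjusted p = 0.000503), Gab1, the adaptor, fell (-1.34), and Map2k1, the gene of the kinase MEK1, fell (-0.96). In Pcgf5-/- none rose by limma, 1 (Shc1) at an unadjusted p under 0.05, and Map2k1 fell (-0.72, adjusted p = 0.00765). The limma calls there were 0% higher and 7.69% lower, beside 21.9% and 10.4% of all tested genes. At day 6 Gab1 (0.93) and the adaptor gene Shc1 (0.51) were higher in Pcgf5-/-. That is 15.4% of the 13 higher and 0% lower, beside 9.57% and 7.05% of all tested genes. At an unadjusted p under 0.05 in limma, 4 were higher and 3 lower. Gab1 was also called for the change between the days (1.22, adjusted p = 0.0491).

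A further 10 genes known as targets of the pathway in mESCs were set beside Socs3 and Pim1. In WT, 7 of the 10 fell and 1 rose (70% and 10%), beside 16.2% and 34.2% of all tested genes. In Pcgf5-/- 7 fell and 2 rose (70% and 20%), beside 10.4% and 21.9%. Tfcp2l1, a transcription factor of naive pluripotency, was at 84.7 and 74.3 FPKM in WT day 0, 2.17 and 1.17 in WT day 6, 60.2 and 50.9 in Pcgf5-/- day 0, and 7.28 and 5.18 in Pcgf5-/- day 6. It fell by 4.94 in WT and by 2.98 in Pcgf5-/- (adjusted p = 5.98e-06 and 0.000153), and the change of the genotype difference was 1.96 (SE 0.32, adjusted p = 0.0299). Klf4 fell in WT (-5.0) and in Pcgf5-/- (-4.18), as did Klf5 (-3.60 and -2.15). Junb, an AP-1 gene, fell too (-2.80 and -2.88).

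Pim2, the third PIM kinase gene, went against its relatives. It rose from 5.64 and 4.64 to 41.3 and 14.8 FPKM in WT (2.08, adjusted p = 0.0033) and from 6.78 and 5.42 to 78.1 and 54.5 in Pcgf5-/- (3.23, adjusted p = 0.00107). Gbx2 rose in Pcgf5-/- (2.75, adjusted p = 0.0189), with the day 0 samples at 1.20 and 4.41 FPKM and the day 6 samples at 30.4 and 16.1. At day 6, none of the 10 was lower in Pcgf5-/- than in WT by limma, 1 (Fos) at an unadjusted p under 0.05. Tfcp2l1 (1.45), Klf5 (1.4), Klf4 (1.28) and Bcl3 (0.80) were higher. That is 40% higher and 0% lower, beside 9.57% and 7.05% of all tested genes. All 8 mESC markers were also higher in Pcgf5-/- than in WT at day 6. With day in Pcgf5-/- the lists were less alike. The median log2 difference there was -2.08 for the 10 targets and -0.94 for the 8 mESC markers. The part of the mix of cells in the levels of these targets was not tested.

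**Figure D5:**
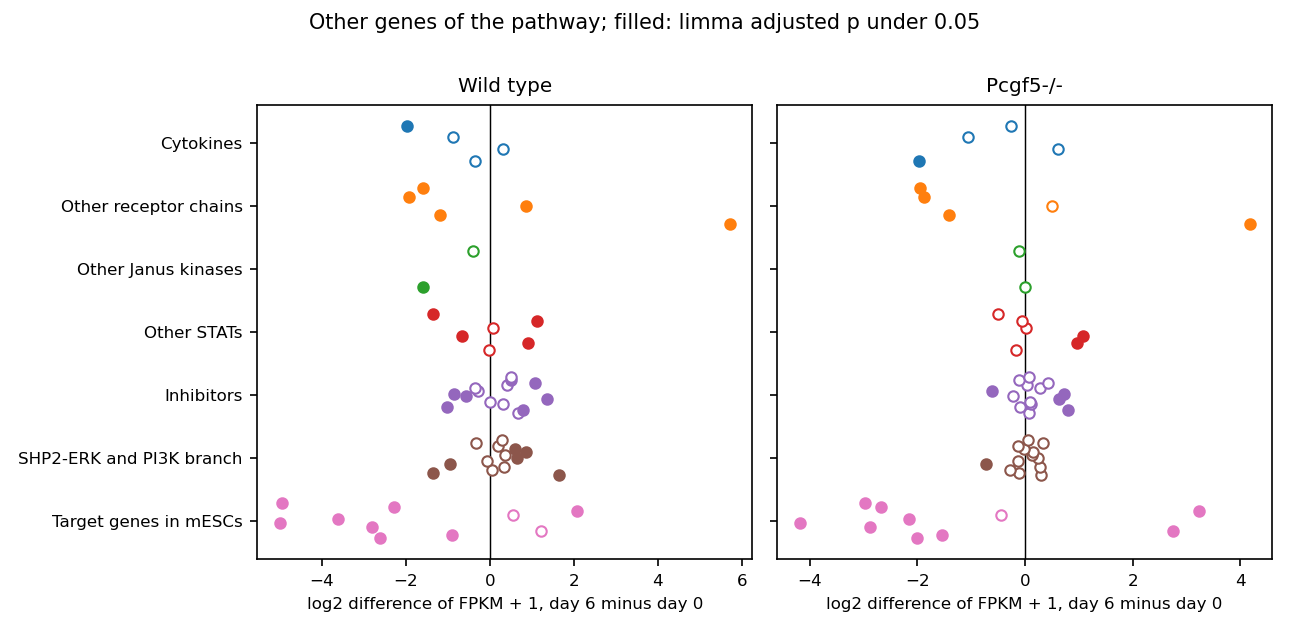
Day 6 against day 0, as log2 difference of FPKM + 1, for the 54 tested genes other than the 9, by role, in wild type (left) and Pcgf5-/- (right). Filled points have an adjusted p under 0.05. Cntfr is the point far to the right among the receptor chains, at 5.71 and 4.17, and most target genes lie to the left of 0.

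For the change of the genotype difference between the days, 6 of the 54 genes (11.1%) were called higher and 0 lower (Osm, Jak3, Stat4, Ptpn6, Gab1 and Tfcp2l1), beside 1.34% and 1.75% of all tested genes, with 11 and 9 at an unadjusted p under 0.05 in limma. Jak2, one of the 9 core genes, was called the other way. The 6 stood higher at day 6 in Pcgf5-/- than in WT, and Jak2 stood lower. At day 0 the mean FPKM of each of the 6 was lower in Pcgf5-/- than in WT, and limma called none. Osm was at -0.84 (adjusted p = 0.09) and Jak3 at -0.48 (adjusted p = 0.222) on that day. The day 0 difference of Jak2 was 0.00.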

How the data were processed

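RNA-seq of WT and Pcgf5-/- MPI-II mESCs at day 0 and day 6 was used, with 2 samples in each of 4 conditions. According to the methods and processing notes, the authors trimmed reads, removed duplicates, aligned to mm9 with TopHat2 (version 2.0.4) and deposited per-gene FPKM values with confidence bounds from Cufflinks (version 2.1.1). The annotation and the strand setting are not given in the sources used here. FPKM corrects for length and depth, keeps no counts, and shares a library total, so a shift in many genes moves the rest.

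Files were joined on gene identifier and locus. The filter kept genes whose condition mean exceeded 1 FPKM at least once. They were tested on log2(FPKM + 1) in R 4.3.3 (limma 3.58.1), where all 8 samples entered one fit with condition means and a trended variance, after the method had been tested on simulated data. P-values were adjusted over all genes tested. That labels number the replicates does not say whether they were separate cultures, beyond the design text calling them biological replicates, so p-values measure the spread between these samples. Python 3.11.15 and matplotlib 3.10.9 were used for motifs and figures.

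The 9 genes, the 58 further pathway genes and the 7 marker lists were chosen with earlier results of these data known. All 9 are named, and from the list up to 3 genes per role and comparison with the largest change among those called, or all of a count of 5 or fewer, and 2 genes most like each member, of which the nearer is printed for most. Genes named for values outside the rule were chosen after their values were seen. These were Socs1, Il6, Lum, Dcn, Postn, Col1a1, Col3a1, Raver2, Zfp91, Shc1, Fos, Utf1, Dppa4 and Stmn2. Cufflinks half-widths of the 72 values of the 9 genes had a median of 7.93% (4.37% to 20.7%), and 71 of the values lay inside their own interval. Replicates of a condition correlated at 0.972 to 0.974. Samples of different genotype correlated at 0.962 to 0.974 at day 0 and at 0.913 to 0.950 at day 6. Of the 4 remaining marker lists, neuron genes summed to 149 to 176 FPKM at day 0. Their sums were 443 and 319 in WT day 6 and 164 and 150 in Pcgf5-/- day 6. These sums hide opposite moves. Stmn2, 1 of the 6, was called lower with day in both genotypes, while 5 were called higher in WT and 4 in Pcgf5-/-. Astrocyte genes summed to 4.42 to 10.9 in any sample. Primitive endoderm genes summed to 1.54 to 52.6 (the highest in replicate 1 of WT day 6), and trophectoderm genes to 3.93 to 13.1. Alternatives covered pseudocount, filter, scaling, replicate block, variance trend, samples, chromosome centring and leaving out each replicate.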

Additional observations from a re-analysis of the deposited data

Results flagged for a closer look

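The response of Jak2 to differentiation differed between the genotypes by the interaction term of the limma fit. The genotype difference on the log2(FPKM + 1) scale changed by -1.278 between day 0 and day 6 (SE 0.27, adjusted p = 0.0484), with 4.26 and 3.77 FPKM in WT and 4.19 and 3.86 in Pcgf5-/- at day 0, and 23.2 and 32.1 against 10.2 and 11.3 at day 6. Over 19 alternatives the value ran from -1.5 to -1.05 and the adjusted p from 0.0268 to 0.160, past the threshold in 4. Groups of 2 samples are too small for a check of single samples within a group.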

How the results depend on the processing

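Each value was recomputed under up to 19 alternatives. Of the single-gene values of the 9 genes under alternatives, 685 kept direction and side of the threshold, 36 changed sign, 19 lost and 7 gained a call; of the counts, 135 stayed within 1.5 times and 31 did not. The sign changes are all of differences that were not called in the main result. In the genotype difference at day 0, with quantile, upper quartile and median of ratios scaling and chromosome centring in that order, Jak1 was -0.0399, -0.0418, -0.0527 and -0.0692, Jak2 -0.15, -0.10, -0.11 and -0.16, and Socs3 -0.0448, -0.0540, -0.0650 and -0.46, and with centring Stat3 was -0.0237. In the WT day difference Jak1 was -0.13, -0.0358, -0.11 and -0.21 in the same order. Socs3 at day 6 was -0.0513 with centring. With single replicates left out, day 0 genotype differences ran from -0.0483 to 1.49 for Lif, -0.0579 to 0.21 for Jak1, -0.0650 to 0.0737 for Jak2, -0.28 to 0.42 for Socs3, -0.18 to 0.16 for Pim1 and -0.18 to 0.0476 for Pim3. At day 6 they ran from -0.21 to 0.40 for Il6st and -0.0137 to 0.28 for Pim3. The WT day difference of Lif ran from -1.34 to 0.20, the Pcgf5-/- day difference of Il6st from -0.17 to 0.44, and the change between the days from -0.65 to 0.89 for Lif and -0.10 to 0.60 for Socs3.

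Of the 2 genes of the 9 called at day 6, leaving out 1 replicate left 0 to 2 (0 without replicate 1 of Pcgf5-/- day 6, 1 without replicate 2 of WT day 6), and of the 16 further pathway genes 3 to 11. No filter on low values gave 10 of these, as did a fit of only the samples compared. For the change between the days, the 1 call among the 9 was 0 with pseudocounts of 0.1 and 0.01, no filter, quantile, upper quartile or median of ratios scaling, the replicate block and chromosome centring, and 0 to 1 with a replicate left out, and the 6 calls among the further genes were 0 with no filter and 0 to 8 with a replicate left out. Over all genes, 44 calls at day 0 became 0 with only the samples compared and 282 with a replicate block for each day, and 408 calls of the change between the days became 86 with no filter and 1167 with that block. The causes were not tested. A sample left alone in its condition was taken to vary like the others.

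The labels number replicates 1 and 2 in each condition. Deviations of same-numbered samples correlated at 0.10 between the genotypes at day 0 and 0.39 at day 6, and at -0.04 and -0.03 between the days, and nothing in the labels ties a number to a shared culture or day, so the numbers were not taken as pairs, although same-numbered day 6 samples deviated together. With the replicate block Pim1 at day 6 (0.56) had an adjusted p of 0.0281, and the Jak2 change between the days 0.0527. With a replicate block for each day, 1 further pathway gene was called at day 0 against 0, 11 were called for the change between the days against 6, and Pim1 at day 6 had an adjusted p of 0.0247.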
